A study of Mus musculus with 9 samples.

Results

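The 36 mouse genes described here encode the proteins that license replication origins, unwind and copy DNA, and supply nucleotides and histone chaperones for it, together with the transcription factor E2f1. They were picked by gene symbol from the 23361 genes of the deposited table, and all 36 were found. Their RNA was measured in 9 libraries made from FACS-sorted skin cells, which the labels call melanocyte stem cells, the cells of the hair follicle that renew its pigment cells. The 3 groups, named UVB, Active and Quiescent, had 3 libraries each, and all mice carried the genotype TBPT, which the labels do not spell out, and were 10 weeks old. One treatment label, naming chemical depilation or UVB (medium-wave ultraviolet light), stood on every sample alike, so it does not tell which animals were depilated. The labels also do not say whether the libraries of a group came from separate animals, and p-values measure only the spread between these libraries.

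A cell that prepares to divide marks its origins in G1 phase, when the origin recognition complex, Cdc6 and Cdt1 load the ring-shaped MCM2-7 helicase onto DNA. At the start of S phase Cdc45 and GINS bind to MCM2-7 and turn it into a working helicase, primase and the DNA polymerases copy the strands, and the clamp loader RFC places PCNA on DNA to hold the polymerases in place. Transcription of many of these genes is controlled by E2F factors and the retinoblastoma protein family, and their RNA is low in cells that have left the cell cycle.

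E2F factors are known for binding to short sites that begin with a run of T and end in CGC. The words TTTCCCGC, TTTCGCGC, TTTGCCGC and TTTGGCGC were therefore searched on both strands of RefSeq promoter sequences (build GRCm38.p6), which run from 250 bases before to 50 bases after a gene start. The set has 32851 entries, as some genes have more than 1 start. A gene counted if any of its entries held a word, and distances refer to the start of that entry. Of the 36 genes 29 had an entry, and 11 of these, or 37.9%, held at least 1 word, against 2.6% of all 27025 genes with an entry in the RefSeq promoter set. Another promoter element, CCAAT on either strand, was present in 18 of the 29, or 62.1%, against 41.1% of the 27025 genes. The promoters of Mcm5 and Mcm6, which encode helicase subunits, are shown over 180 bases because in each a pair of words overlapped on opposite strands; the bases of the words are in capitals. The Mcm5 window is chr8:75109329-75109508 on the plus strand and the Mcm6 window is chr1:128359706-128359885 on the minus strand.
Mcm5: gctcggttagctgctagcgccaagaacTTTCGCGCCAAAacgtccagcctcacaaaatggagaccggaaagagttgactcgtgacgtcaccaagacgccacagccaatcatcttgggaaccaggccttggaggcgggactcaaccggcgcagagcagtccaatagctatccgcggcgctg
Mcm6: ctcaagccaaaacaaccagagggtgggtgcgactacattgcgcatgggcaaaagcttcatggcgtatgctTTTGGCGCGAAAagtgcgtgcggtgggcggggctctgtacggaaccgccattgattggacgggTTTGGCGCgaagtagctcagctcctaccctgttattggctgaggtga
In Mcm5 the words began 153 and 149 bases before the start, and in Mcm6 they began 110, 106 and 47 bases before it.

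The other 9 promoters with a word are shown around 1 word each, in capitals and in the orientation in which it reads from its first T, with up to 10 bases on each side. Mcm3, Mcm7 and Rfc3 each held another word that is not in capitals. In Rfc3 this is TTTCCCGC on the opposite strand, which makes up the last bases of its line.
Orc1, chr4:108579417-108579444, minus strand: ggagaaaactTTTCGCGCcactaaccga
Cdc6, chr11:98908003-98908030, minus strand: ccccaggcgaTTTCCCGCtctccaccgg
Cdt1, chr8:122568037-122568064, plus strand: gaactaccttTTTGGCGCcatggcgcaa
Mcm3, chr1:20820276-20820303, plus strand: cttcccaagtTTTCCCGCcacggaagtt
Mcm7, chr5:138172031-138172058, plus strand: ggacaccctgTTTCCCGCggttcgaaat
Gins3, chr8:95633508-95633535, minus strand: tcaaactcgcTTTCCCGCgccgcactcg
Pola1, chrX:93632276-93632303, plus strand: cgggagtgcaTTTGGCGCcctgtgatga
Pold1, chr7:44548766-44548786, plus strand: gctTTTCCCGCcacaagatac
Rfc3, chr5:151651201-151651228, minus strand: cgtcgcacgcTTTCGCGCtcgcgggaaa
A match describes the letters only, and the absence of one says only that these letters are not in this window. The 18 other members with an entry held none of the 4 words.

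The libraries held 24601660 to 27253530 fragments in UVB, 21045070 to 26193562 in Active and 22448084 to 35131778 in Quiescent, and 15078 genes, all 36 members among them, had enough fragments to be tested. Levels are given as CPM, the usual depth-scaled count, with library totals corrected by TMM factors, and each adjusted p comes from the quasi-likelihood test of edgeR, adjusted by Benjamini-Hochberg over these 15078 genes, with a threshold of 0.05. The label melanocyte stem cell was checked against 8 melanocyte markers, whose summed level was 842 to 1030 CPM in UVB, 7650 to 12500 CPM in Active and 74.3 to 120.0 CPM in Quiescent. Among them the neural crest factor Sox10 averaged 474 ± 143 CPM in UVB, 591 ± 60.6 CPM in Active and 2.16 ± 1.85 CPM in Quiescent (SD, n = 3 each). Other markers of the list differed from it. Mitf averaged 27.3 ± 9.58 CPM in UVB, 210.0 ± 146 CPM in Active and 55.0 ± 8.44 CPM in Quiescent. Mlana averaged 6.72 ± 2.56, 77.6 ± 30.5 and 6.43 ± 3.79 CPM in UVB, Active and Quiescent. These were the 2 of the 8 not called higher in UVB than in Quiescent, and 6 were. The sum of 6 fibroblast markers ran the other way, with 21800 to 34000 CPM in UVB, 4750 to 6040 CPM in Active and 334000 to 451000 CPM in Quiescent, and all 6 were lower in both UVB and Active than in Quiescent. The collagens Col1a1, Col1a2 and Col3a1 alone took 2.45 to 3.49% of the fragments in UVB, 0.549 to 0.698% in Active and 23.2 to 27.7% in Quiescent. By these sums the markers did not bear out the label for the Quiescent libraries. Those held the least melanocyte and the most fibroblast marker RNA of all groups. Xist RNA, made from the inactive X of female cells, counted 23353 to 30356 fragments per UVB library and 4 to 12 per library elsewhere, so in the comparisons with UVB this difference and the group cannot be told apart. Markers of other cell types also differed between the groups. Those of hair matrix and inner root sheath, which were highest in Active, summed to 1.68 to 42.2 CPM in UVB, 80.1 to 505 CPM in Active and 2.89 to 16.5 CPM in Quiescent. Endothelial markers summed to 101 to 194 CPM in UVB, 14.2 to 18.1 CPM in Active and 259 to 341 CPM in Quiescent, and muscle markers to 61.3 to 161 CPM in UVB, 43.1 to 72.1 CPM in Active and 567 to 758 CPM in Quiescent. Both were highest in Quiescent. Myeloid markers were lowest in Active, with 425 to 953 CPM in UVB, 25.6 to 68.0 CPM in Active and 140.0 to 1480 CPM in Quiescent. T cell markers, at 9.08 to 15.6 CPM in UVB, 1.38 to 2.21 CPM in Active and 0.354 to 1.52 CPM in Quiescent, and mast cell markers, at 36.7 to 76.5 CPM in UVB, 3.11 to 5.7 CPM in Active and 1.77 to 5.04 CPM in Quiescent, were highest in UVB. Schwann cell markers summed to 435 to 597 CPM in UVB, 325 to 509 CPM in Active and 34.0 to 58.8 CPM in Quiescent, and keratinocyte markers, whose Quiescent libraries spanned both other groups, to 214 to 543 CPM in UVB, 609 to 950 CPM in Active and 102 to 1860 CPM in Quiescent. In bulk RNA, fewer cells of a type and less RNA per cell cannot be told apart, and the part of these differences in the results was not tested.

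Active was compared with Quiescent to ask how the replication genes differ between cells labelled active and cells labelled quiescent. Of the 36 genes 35 rose in Active, none fell, and E2f1 did neither. Over all genes tested, 29.1% were called higher and 29.2% lower. The median log2 fold change of the 36 was 2.82, against 0.01 over all genes tested. The libraries of the groups did not overlap in CPM for the same 35 genes, against 33.5% of all genes with every Active library above every Quiescent library. In the same comparison all 8 melanocyte and 4 of 5 hair matrix and inner root sheath markers were higher in Active, and all 6 fibroblast, 4 endothelial, 3 muscle and 5 myeloid markers were lower. The myeloid sums varied widely among the Quiescent libraries, at 230, 1480 and 140 CPM. Only 2 of the 5 myeloid markers had every Active library below every Quiescent library. The part of all these marker lists in the rise of the replication genes was not tested.

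In UVB against Quiescent 34 of the 36 rose, none fell, and Orc6 and E2f1 did neither, where 25.8% of all genes were called higher and 23.2% lower. The median log2 fold change of the 36 was 2.33, against 0.02 over all genes tested. All UVB libraries lay above all Quiescent libraries for the 34 genes, and for 30.2% of all genes. Beside this, 6 of 8 melanocyte markers and all 4 T cell and 4 mast cell markers were higher in UVB, while all 6 fibroblast, 3 of 4 endothelial and all 3 muscle markers were lower, and their part was not tested. Both comparisons use the same 3 Quiescent libraries, and they are given side by side.

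**Figure D1:**
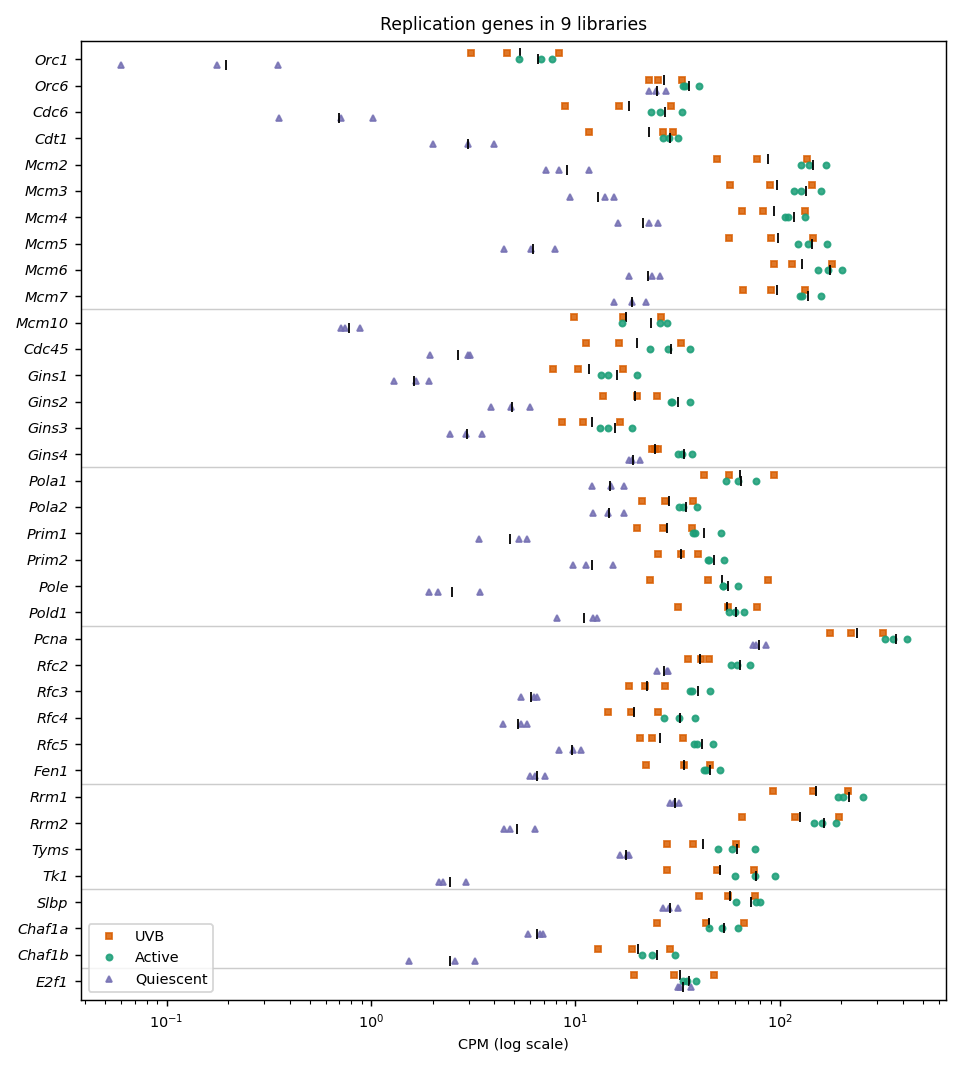
Level of each of the 36 replication genes in each of the 9 libraries (points, CPM on a log axis), with a black bar for the mean of 3 libraries of a group. UVB and Active libraries lie to the right of Quiescent for nearly all genes, while E2f1 lies between 19.4 and 47.7 CPM in all 9 libraries.

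The origin licensing genes had the widest range of responses, with a median log2 fold change over the 10 of 3.33 in Active and 2.92 in UVB. Cdc6, the ATPase that recruits MCM2-7 to origins, had 16.4, 29.4 and 8.91 CPM in the UVB libraries, 25.9, 33.1 and 23.3 CPM in Active and 1.02, 0.715 and 0.354 CPM in Quiescent. Every UVB and Active library was far above every Quiescent library. Its level was 38.0-fold higher in Active than in Quiescent (log2 fold change 5.25 ± 0.53 SE, adjusted p = 5.2e-05) and 25.2-fold higher in UVB (4.66 ± 0.52, adjusted p = 1.7e-04), the largest fitted fold among the 36 in each comparison with all 9 libraries. Orc1, the largest subunit of the origin recognition complex, had 4.6, 8.32 and 3.07 CPM in UVB, 6.76, 7.69 and 5.27 CPM in Active and 0.352, 0.0596 and 0.177 CPM in Quiescent. The Quiescent values rest on 9, 1 and 3 fragments, fewer than for any other member, against 91 to 243 in the UVB libraries and 129 to 217 in the Active libraries. Orc1 was 30.7-fold higher in Active than in Quiescent (adjusted p = 1.2e-04) and 24.9-fold higher in UVB (adjusted p = 2.8e-04), and without Quiescent replicate 1 these folds were 53.4 and 43.2.

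Orc6, the smallest subunit of the same complex, behaved unlike Orc1. It had 25.3, 33.1 and 22.9 CPM in UVB, 33.7, 40.4 and 34.3 CPM in Active and 22.8, 24.8 and 27.8 CPM in Quiescent. The Active libraries all lay above both other groups, and UVB overlapped Quiescent. It rose 1.44-fold in Active (0.52 ± 0.16, adjusted p = 0.02), a call that was lost without Active replicate 2 (adjusted p = 0.0743) or without Quiescent replicate 1 (adjusted p = 0.0646). In UVB against Quiescent its log2 fold change was 0.11 with a 95% interval of -0.25 to 0.47 (adjusted p = 0.592); it was -0.06 without UVB replicate 2, and 0.84 (adjusted p = 0.00138) when libraries were scaled by their totals alone. Orc6 shares 171 exon bases with Vps35 on the opposite strand, and whether the authors' counts kept the strands apart is not stated in the labels. Cdt1, the partner of Cdc6 in loading MCM2-7, had 26.7, 30.1 and 11.7 CPM in UVB, 26.9, 31.6 and 28.7 CPM in Active and 2.97, 3.99 and 2.01 CPM in Quiescent. It stood 9.71-fold higher in Active and 7.63-fold higher in UVB than in Quiescent (adjusted p = 1.1e-04 and 3.4e-04).

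All 6 subunits of the MCM2-7 helicase rose in both comparisons, by 5.44-fold for Mcm4 to 23.2-fold for Mcm5 in Active and by 4.36-fold for Mcm4 to 15.7-fold for Mcm5 in UVB. Mcm5 had 90.2, 146 and 56.3 CPM in UVB, 138, 170.0 and 123 CPM in Active and 7.94, 6.08 and 4.49 CPM in Quiescent. Mcm2 had 77.5, 135 and 49.5 CPM in UVB, 139, 168 and 127 CPM in Active and 11.7, 8.28 and 7.15 CPM in Quiescent. Mcm4 had 82.8, 132 and 65.6 CPM in UVB, 110.0, 133 and 106 CPM in Active and 22.8, 25.2 and 16.2 CPM in Quiescent. In these 3 genes UVB replicate 2 reached the Active range and the other UVB libraries stood below it, and none came near the Quiescent libraries. Mcm3, Mcm6 and Mcm7 averaged 96.9 ± 43.8, 129 ± 45.2 and 96.3 ± 33.6 CPM in UVB, 134 ± 22.2, 175 ± 23.6 and 138 ± 18.5 CPM in Active and 12.9 ± 3.12, 22.7 ± 3.97 and 18.9 ± 3.38 CPM in Quiescent. Mcm6 rose 7.71-fold in Active and 5.68-fold in UVB. Mcm5 and Mcm6 are the genes shown above with overlapping E2F words, and a relation between words and folds was not tested.

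**Figure D2:**
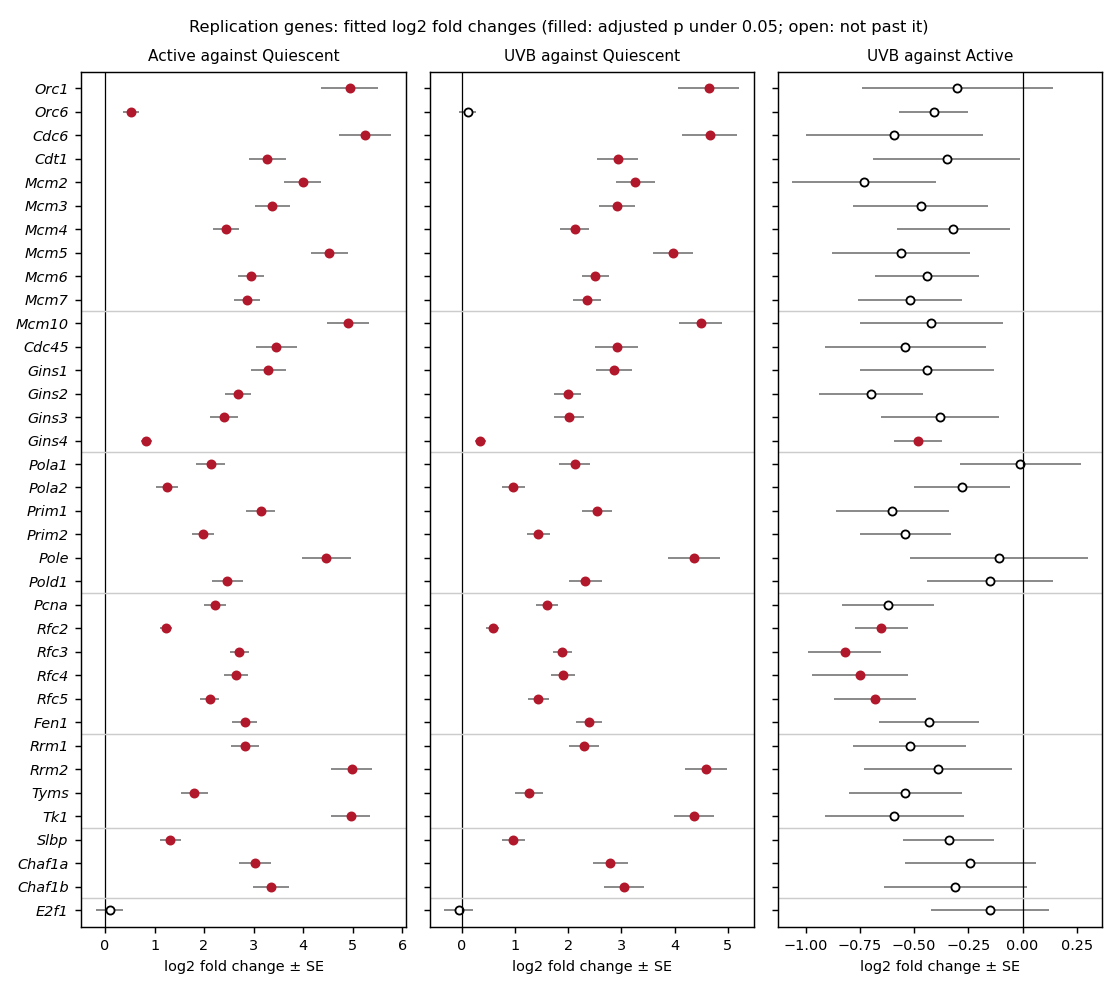
Fitted log2 fold change with its standard error (bars) for each of the 36 genes in Active against Quiescent (left), UVB against Quiescent (middle) and UVB against Active (right), where filled points have an adjusted p under 0.05. Nearly all points in the left and middle panels lie to the right of 0 and are filled, and in the right panel 5 are filled, all below 0.

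The 6 genes of helicase activation rose in both comparisons, with median log2 fold changes of 3.0 in Active and 2.44 in UVB. Mcm10, which helps to start the assembled helicase, had 17.0, 26.1 and 9.89 CPM in UVB, 25.8, 28.0 and 16.8 CPM in Active and 0.743, 0.715 and 0.886 CPM in Quiescent. It was 30.1-fold higher in Active (4.91 ± 0.42, adjusted p = 2.3e-05) and 22.5-fold higher in UVB (4.49 ± 0.41, adjusted p = 6.3e-05). Cdc45, the helicase cofactor, averaged 20.1 ± 11.2 CPM in UVB, 29.3 ± 6.6 CPM in Active and 2.65 ± 0.611 CPM in Quiescent, which made it 11.0-fold and 7.52-fold higher in Active and UVB than in Quiescent. The 4 subunits of GINS, which is a complex with 1 copy of each, did not move alike. Gins1 rose 9.88-fold in Active and 7.28-fold in UVB, Gins2 rose 6.46-fold and 3.97-fold, and Gins3 rose 5.27-fold and 4.06-fold. Gins4 had 23.7, 25.2 and 24.6 CPM in UVB, 31.9, 37.2 and 33.3 CPM in Active and 18.8, 20.6 and 18.2 CPM in Quiescent. The 3 groups of Gins4 libraries did not overlap and stood in the order Active, UVB, Quiescent. Gins4 rose 1.78-fold in Active (adjusted p = 2.2e-04) and 1.27-fold in UVB (adjusted p = 0.025). The UVB call was lost without UVB replicate 1 or 2, without Active replicate 3 and without Quiescent replicate 1 or 3, with adjusted p of 0.0503 to 0.0666, and when only the UVB and Quiescent libraries were fitted (adjusted p = 0.0667).

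The genes of the polymerases and primase rose in both comparisons, all 6 of them, with medians of 2.3 in Active and 2.22 in UVB. Pole, the catalytic subunit of the leading-strand polymerase epsilon, had 44.7, 87.8 and 23.2 CPM in UVB, 52.5, 62.5 and 52.9 CPM in Active and 3.4, 1.91 and 2.13 CPM in Quiescent. It was 22.2-fold higher in Active (4.47 ± 0.49, adjusted p = 8.6e-05) and 20.6-fold higher in UVB (4.36 ± 0.49, adjusted p = 1.8e-04), or 13.5-fold in UVB without UVB replicate 2. The UVB libraries of Pole were spread so widely that they reached above and below all Active libraries. Pold1, the catalytic subunit of polymerase delta, which copies mainly the lagging strand, averaged 55.1 ± 22.7 CPM in UVB, 61.1 ± 5.59 CPM in Active and 11.0 ± 2.51 CPM in Quiescent, a rise of 5.52-fold in Active and 4.98-fold in UVB. In the polymerase alpha and primase complex, which lays the first primers, Prim1 rose 8.81-fold in Active and 5.81-fold in UVB, while Pola2 rose 2.38-fold and 1.96-fold. Pola1, its catalytic subunit, had 56.4, 93.6 and 42.5 CPM in UVB, 62.7, 76.7 and 54.4 CPM in Active and 12.1, 17.3 and 14.9 CPM in Quiescent. It rose 4.38-fold in Active and 4.34-fold in UVB. Pola1 is the only one of the 36 genes on the X chromosome, and UVB libraries were also those with Xist fragments. Prim2, the large primase subunit, rose 3.95-fold and 2.71-fold in Active and UVB.

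The clamp, the clamp loader and the flap nuclease had medians of 2.43 in Active and 1.75 in UVB, and all 6 genes rose in both. Pcna, the sliding clamp, had 223, 319 and 176 CPM in UVB, 358, 419 and 326 CPM in Active and 76.8, 85.8 and 74.1 CPM in Quiescent. It was 4.66-fold higher in Active (adjusted p = 4.4e-05) and 3.03-fold higher in UVB (adjusted p = 4.0e-04). Rfc2, a small subunit of the clamp loader, had 41.0, 44.9 and 35.7 CPM in UVB, 61.5, 71.3 and 57.7 CPM in Active and 27.9, 28.2 and 25.0 CPM in Quiescent. Its rise of 2.35-fold in Active and 1.5-fold in UVB was the smallest of the 4 small subunits, where Rfc3, Rfc4 and Rfc5 rose 6.56-fold, 6.24-fold and 4.33-fold in Active and 3.72-fold, 3.72-fold and 2.71-fold in UVB. The large subunit gene Rfc1, which is not among the 36, rose 1.78-fold in Active and 1.77-fold in UVB. Fen1, the nuclease that trims the flaps between lagging-strand fragments, averaged 33.9 ± 11.7 CPM in UVB, 45.6 ± 4.63 CPM in Active and 6.48 ± 0.571 CPM in Quiescent, a rise of 7.05-fold and 5.24-fold in Active and UVB.

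All 4 nucleotide supply genes rose, with medians of 3.89 in Active and 3.33 in UVB, and Rrm2 and Tk1 had the largest folds among them. Rrm2, the radical-bearing subunit of ribonucleotide reductase, had 118, 195 and 64.9 CPM in UVB, 160.0, 189 and 147 CPM in Active and 6.33, 4.47 and 4.78 CPM in Quiescent. It was 31.6-fold higher in Active (4.98 ± 0.41, adjusted p = 1.9e-05) and 24.1-fold higher in UVB (4.59 ± 0.40, adjusted p = 5.3e-05). Tk1, the cytosolic thymidine kinase of the salvage pathway, had 49.5, 75.1 and 28.0 CPM in UVB, 75.5, 94.2 and 60.6 CPM in Active and 2.93, 2.15 and 2.24 CPM in Quiescent, and was 31.1-fold and 20.6-fold higher in Active and UVB than in Quiescent. Every UVB and Active library of both genes lay far above Quiescent, and UVB replicate 3 was the lowest of them. Rrm1, the large subunit of the reductase, had 146, 215 and 92.4 CPM in UVB, 203, 254 and 193 CPM in Active and 32.1, 29.1 and 30.5 CPM in Quiescent, folds of 7.09 in Active and 4.94 in UVB. Tyms, which makes thymidylate from deoxyuridylate, rose 3.49-fold in Active and 2.4-fold in UVB, and averaged 42.2 ± 16.8 CPM in UVB, 61.4 ± 13.1 CPM in Active and 17.6 ± 0.905 CPM in Quiescent.

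The genes that serve histones and chromatin behind the fork rose in both comparisons. Chaf1a and Chaf1b, the large and middle subunits of chromatin assembly factor 1, rose 8.17-fold and 10.2-fold in Active and 6.94-fold and 8.25-fold in UVB. Slbp, which binds the stem-loop of replication-dependent histone messages, had 55.5, 75.6 and 40.2 CPM in UVB, 76.8, 79.5 and 61.2 CPM in Active and 28.7, 26.9 and 31.8 CPM in Quiescent. Its rise was 2.49-fold in Active (adjusted p = 8.4e-04) and 1.96-fold in UVB (adjusted p = 0.0057), with no overlap with Quiescent.

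E2f1, an activating transcription factor of this gene programme (chr2:154559407-154569892, minus strand, GENCODE M21), was the exception. It had 30.2, 47.7 and 19.4 CPM in UVB, 35.3, 38.8 and 33.5 CPM in Active and 36.8, 32.4 and 31.9 CPM in Quiescent. The Active and Quiescent libraries overlapped, and the UVB libraries lay on both sides of them. The log2 fold change was 0.09 in Active against Quiescent, with a 95% interval of -0.53 to 0.7 (adjusted p = 0.796), and -0.06 in UVB against Quiescent, with an interval of -0.67 to 0.56 (adjusted p = 0.881). The upper end of the interval for Active lies below the fitted value of 34 other members. With libraries scaled by their totals alone, where the median of all genes moved to 0.76, the log2 fold change was 0.84 in Active (adjusted p = 0.0246) and 0.67 in UVB (adjusted p = 0.0628). Of the 9 other E2F and DP factors 7 rose in both comparisons, where 29.1% of all genes were called higher in Active and 25.8% in UVB. E2f8, E2f7 and E2f2 had log2 fold changes of 4.99, 4.3 and 2.88 in Active and 4.78, 4.22 and 2.79 in UVB. E2f8 and E2f7 are atypical members that repress E2F targets, and E2f2 is an activator.

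Because subunits of 1 complex rose by different factors, their proportions differed between groups. On the FPKM scale, fragments per kilobase of transcript scaled to the library, which allows levels of different genes to be compared, Rrm2 stood to Rrm1 in a ratio of 1.55, 1.75 and 1.35 in the UVB libraries, 1.51, 1.43 and 1.46 in Active and 0.378, 0.295 and 0.301 in Quiescent. Rrm2 was thus the more abundant message in every UVB and Active library and the less abundant one in every Quiescent library. An exact two-sided permutation test of the log2 ratio gave p = 0.1 for Active against Quiescent and p = 0.1 for UVB against Quiescent, the smallest that 3 against 3 libraries allow, and p = 0.6 for UVB against Active. In MCM2-7, Mcm5 made up 13.9 ± 1.14% of the summed FPKM in UVB, 14.7 ± 0.442% in Active and 5.77 ± 0.651% in Quiescent (SD, n = 3 each). Mcm4 went the other way, with 13.1 ± 0.774% in UVB, 11.4 ± 0.247% in Active and 19.2 ± 1.76% in Quiescent. Gins4 took 34.1 ± 7.09% of the GINS total in UVB, 31.7 ± 1.89% in Active and 64.3 ± 4.32% in Quiescent. Likewise Rfc2 took 34.9 ± 2.93% of the 4 small RFC subunits in UVB, 32.9 ± 0.656% in Active and 54.1 ± 1.13% in Quiescent, and Pola2 took 19.9 ± 0.241%, 18.0 ± 0.627% and 32.9 ± 4.33% of polymerase alpha and primase in UVB, Active and Quiescent. For each of these 5 genes the Quiescent libraries lay outside the range of both other groups. Chaf1a and Chaf1b, by contrast, overlapped between all groups, with Chaf1a at 54.5 ± 2.34% in UVB, 53.9 ± 0.999% in Active and 60.2 ± 8.96% in Quiescent.

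**Figure D3:**
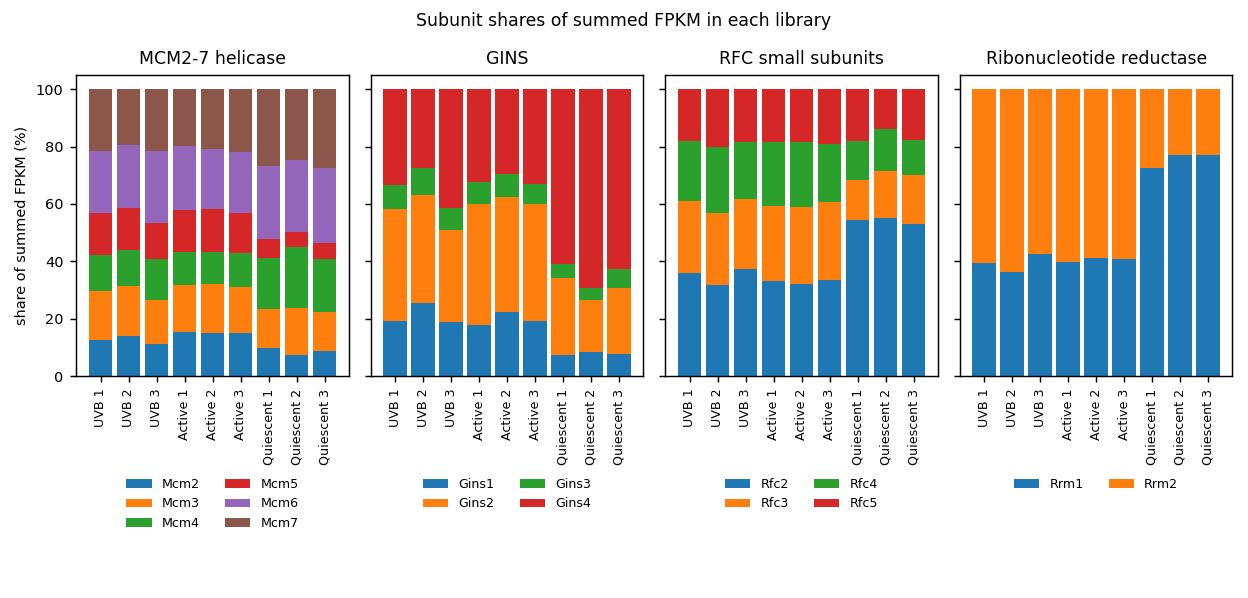
Share of each subunit in the summed FPKM of its complex (stacked bars, percent) in each of the 9 libraries, for MCM2-7, GINS, the small RFC subunits and ribonucleotide reductase. In the Quiescent libraries the largest shares of GINS, RFC and the reductase belong to Gins4, Rfc2 and Rrm1, and the UVB bars resemble the Active ones.

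The order of the 36 genes by mean FPKM had fixed ends. Pcna was the highest in every group, at 215 FPKM in UVB, 333 FPKM in Active and 71.6 FPKM in Quiescent, and Orc1 the lowest, at 1.81, 2.24 and 0.0673 FPKM in UVB, Active and Quiescent. Rrm2 ranked 2 in UVB, 2 in Active and 24 in Quiescent, and Tk1 ranked 5 in UVB, 3 in Active and 25 in Quiescent. E2f1 ranked 24 in UVB, 27 in Active and 6 in Quiescent, with 13.7, 15.2 and 14.4 FPKM, so that its place in the order moved while its level did not pass the test. Orc6 and Gins4 were at ranks 18 and 16 in UVB, 20 and 17 in Active and 4 and 5 in Quiescent.

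UVB was compared with Active to ask whether the replication genes reach the same level in both groups. All 36 had a log2 fold change below 0, against 48.8% of all genes, but only 5 fell and none rose at the threshold, where 9.19% of all genes were called lower and 14.8% higher. The 36 genes varied together across the UVB libraries, with replicate 2 the highest for all of them. Their signs are therefore not independent observations. The median of the 36 was -0.46, against 0.01 over all genes tested. In this comparison 7 of 8 melanocyte markers and 2 of 5 hair matrix and inner root sheath markers were also lower in UVB, and all 6 fibroblast, 4 endothelial, 4 T cell and 4 mast cell markers, 4 of 5 myeloid and 2 of 3 muscle markers were higher; their part was not tested. The 5 replication genes that fell were Rfc2, Rfc3, Rfc4 and Rfc5, the 4 small subunits of the clamp loader, and Gins4. The large subunit gene Rfc1, not among the 36, had a log2 fold change of -0.01 (adjusted p = 0.955). In the GENCODE M21 annotation Rfc2 lies at chr5:134581366-134601805, Rfc3 at chr5:151642756-151651242, Rfc5 at chr5:117378103-117389047, Rfc4 at chr16:23113943-23127737 and Gins4 at chr8:23226616-23237659. Rfc3 had 21.8, 27.4 and 18.2 CPM in UVB, against 37.0, 45.7 and 36.2 CPM in Active, and fell 1.76-fold (-0.82 ± 0.17, adjusted p = 0.013). Rfc4 had 18.6, 25.2 and 14.5 CPM in UVB, against 32.1, 38.5 and 27.1 CPM in Active, and fell 1.68-fold (-0.75 ± 0.22, adjusted p = 0.04). Rfc5 had 23.8, 33.5 and 20.6 CPM in UVB, against 39.5, 47.2 and 38.0 CPM in Active, and fell 1.6-fold (-0.68 ± 0.19, adjusted p = 0.036). In all 3 every UVB library lay below every Active library, as it did for Rfc2, which fell 1.57-fold (adjusted p = 0.0083), and for Gins4, which fell 1.39-fold (adjusted p = 0.015). In all, 10 of the 36 genes had every UVB library below every Active library, where 21.7% of all genes did. The other 5 were Orc6, Gins2, Prim1, Prim2 and Pcna, with log2 fold changes of -0.41 to -0.7 and adjusted p of 0.059 to 0.132.

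The count of 5 members called lower changed when single libraries were left out. So did the count over all genes, which was 1386 of 15078 with all libraries. The members called lower numbered 18 without UVB replicate 2, beside 1050 of 15384 genes. Without Active replicate 2 Rfc2 was the only 1, beside 453 of 15377 genes. They numbered 2 without UVB replicate 1, 3 without UVB replicate 3 and 3 without Active replicate 1. Beside these stood 543 of 15289, 1057 of 15332 and 591 of 15319 genes. With only the UVB and Active libraries fitted they numbered 3, beside 1492 of 14738 genes. Rfc4 (adjusted p = 0.0655) and Rfc5 (adjusted p = 0.0587) no longer passed there. Both calls were also lost without UVB replicate 1, UVB replicate 3, Active replicate 1 or Active replicate 2, with adjusted p of 0.0951 to 0.147 for Rfc4 and 0.0809 to 0.129 for Rfc5. The Rfc4 call was lost without Quiescent replicate 1 (adjusted p = 0.0544) and the Rfc5 call without Active replicate 3 (adjusted p = 0.0624) as well. Gins4 did not pass without UVB replicate 1 (adjusted p = 0.0596) or Active replicate 2 (adjusted p = 0.0719), nor Rfc3 without Active replicate 2 (adjusted p = 0.0586). Without UVB replicate 2, the genes past the threshold included Mcm2 (-1.19, adjusted p = 0.0194), Pcna (-0.89, adjusted p = 0.00958) and Rrm1 (-0.87, adjusted p = 0.0263). Of the 36 members 13 share exon bases with an annotated gene on the opposite strand, and their levels are uncertain to that extent. Among the called genes, Rfc2 shares 952 bases with Lat2, which averaged 9.64 CPM in UVB, 1.58 CPM in Active and 1.54 CPM in Quiescent, Rfc4 shares 194 bases with Eif4a2, and Rfc5 shares 499 bases with Wsb2. At the other end, Pola1 and Pole had log2 fold changes of -0.01 and -0.11, with 95% intervals of -0.64 to 0.62 and -1.04 to 0.82, and the sign of both turned without UVB replicate 3, to 0.21 and 0.24.

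The UVB libraries differed among themselves in these genes more than in most others. Their summed level over the 36 genes was 1820, 2750 and 1270 CPM in the UVB libraries, 2600, 3130 and 2400 CPM in Active and 490.0, 487 and 441 CPM in Quiescent. UVB replicate 2 was the highest UVB library for 36 of the 36 genes and UVB replicate 3 the lowest for 35, an order that 21.1% of all genes tested had. The ratio of UVB replicate 2 to UVB replicate 3 had a median of 2.18 over the 36 genes, with a range of 1.03 for Gins4 to 3.79 for Pole, against a median of 0.943 over all genes. The coefficient of variation within UVB had a median of 40.0% over the 36 genes and 16.2% over all genes, while in Active it was 13.5% against 12.2% and in Quiescent 17.8% against 17.6%. E2f1 took part in this spread, with 47.7 CPM in UVB replicate 2 and 19.4 CPM in UVB replicate 3, although its group means hardly differed. In the same UVB libraries the summed fibroblast markers stood at 28800, 21800 and 34000 CPM, the myeloid markers at 425, 464 and 953 CPM, the endothelial markers at 101, 103 and 194 CPM and the melanocyte markers at 1000, 842 and 1030 CPM, and the part of these differences in the spread was not tested. In Active, replicate 2 was also the highest for all 36 genes, with replicate 3 the lowest for 28, an order that 19.6% of all genes had.

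**Figure D4:**
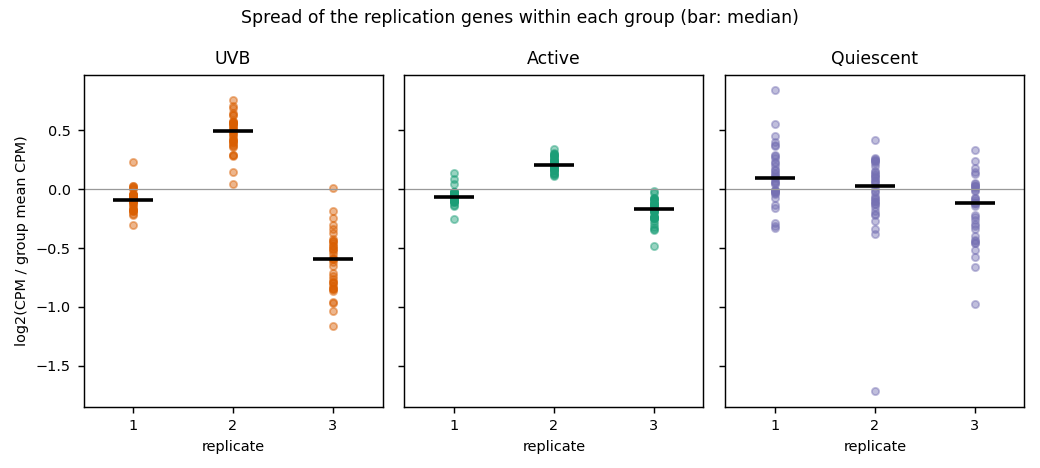
Each replication gene's CPM in a library relative to the mean of its group (points, log2 scale), by replicate within UVB, Active and Quiescent, with a bar at the median of the 36 genes. The UVB points of replicate 2 lie mostly above and those of replicate 3 mostly below those of replicate 1, and the clouds overlap in part. The Active clouds are closer together. The lowest Quiescent point is Orc1 in replicate 2, which rests on 1 fragment.

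The 15 listed mitosis genes, whose products act after S phase, rose in both comparisons with medians of 4.71 in Active and 4.59 in UVB and a median of -0.22 in UVB against Active, where none passed. Over all genes tested, 29.1% were called higher in Active and 25.8% in UVB against Quiescent. In UVB against Active 14.8% of all genes were called higher and 9.19% lower. Cyclin B2 (Ccnb2) and its kinase Cdk1 rose 37.1-fold and 34.4-fold in Active and 24.9-fold and 22.9-fold in UVB, the checkpoint kinase Bub1 rose 31.1-fold in UVB, and Cdc20, an activator of the anaphase-promoting complex, rose 23.9-fold in Active. The summed CPM of the 36 replication genes stood to that of the mitosis genes at 1.45, 1.42 and 1.9 in UVB, 1.93, 1.91 and 2.19 in Active and 11.1, 13.1 and 6.88 in Quiescent. All 15 mitosis genes had the same order within UVB as the replication genes, replicate 2 highest and replicate 3 lowest. Over all genes tested 21.1% had this order. The median ratio of UVB replicate 2 to UVB replicate 3 over the 15 was 2.83.

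The remaining machinery was described with 78 further replication genes, all of them tested, of which 63 rose and 4 fell in Active and 60 rose and 3 fell in UVB against Quiescent. Over all genes tested, 29.1% were called higher and 29.2% lower in Active, and 25.8% and 23.2% in UVB against Quiescent. The medians of the 78 were 1.41 and 1.06, and -0.22 in UVB against Active. There 1 of the 78 rose and 8 fell, where 14.8% of all genes were called higher and 9.19% lower. These shares also apply beside the counts of the single lists that follow. Among 9 other licensing factors 5 rose in each comparison with Quiescent, with Gmnn (geminin, the inhibitor of Cdt1) 13.1-fold and 9.02-fold, Mcm8 5.89-fold and 4.66-fold and the MCM-binding protein gene Mcmbp 2.06-fold and 2.04-fold higher in Active and UVB. Of 13 origin firing factors 13 rose in Active and 12 in UVB, among them cyclin A2 (Ccna2, 21.0-fold and 16.1-fold) and Mtbp (3.81-fold and 3.23-fold), and in UVB Dbf4, the activator of the Cdc7 kinase (7.15-fold). Cdk2, the S-phase kinase, rose 8.0-fold in Active and fell 2.58-fold in UVB against Active (adjusted p = 0.0041); it shares 34 exon bases with the pigment gene Pmel on the opposite strand, which averaged 52.6 CPM in UVB, 670.0 CPM in Active and 5.1 CPM in Quiescent, and the part of this overlap was not tested.

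Of 24 other fork and elongation genes 20 rose and 1 fell in Active, and 18 rose and 1 fell in UVB. Top2a (topoisomerase II alpha), the fork mediator Clspn and the DNA ligase Lig1 rose 38.6-fold, 34.3-fold and 11.6-fold in Active and 34.3-fold, 34.1-fold and 8.1-fold in UVB. Pold4, the smallest polymerase delta subunit, fell in both, by 0.85 and 0.75 on the log2 scale (adjusted p = 0.017 and 0.034). In UVB against Active 3 of the 24 fell and none rose: Rnaseh2a and Rnaseh2c, subunits of the enzyme that removes ribonucleotides from DNA, fell 1.71-fold and 1.68-fold, and Pole4 fell 1.47-fold.

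Among 15 other genes of nucleotide supply 10 rose in each comparison with Quiescent, including the thymidylate kinase gene Dtymk (2.91-fold in Active, 2.03-fold in UVB) and the deoxycytidine kinase gene Dck (8.17-fold and 6.94-fold). Those that fell were Samhd1, Tk2 and, in Active, Rrm2b. Samhd1, a hydrolase that breaks down deoxynucleotides, averaged 75.5 ± 10.6 CPM in UVB, 38.9 ± 2.18 CPM in Active and 159 ± 36.9 CPM in Quiescent, and was 4.08-fold lower in Active (adjusted p = 2.8e-05) and 2.1-fold lower in UVB (adjusted p = 0.0012) than in Quiescent and 1.94-fold higher in UVB than in Active (adjusted p = 0.0071). Tk2, the mitochondrial thymidine kinase, fell 1.71-fold in Active and 1.63-fold in UVB, and Rrm2b, the p53-induced reductase subunit, fell 1.37-fold in Active (adjusted p = 0.032). In UVB against Active Dtymk and Impdh2, an enzyme of guanine nucleotide synthesis, fell 1.43-fold and 1.3-fold. All 8 other chromatin replication genes rose in both comparisons with Quiescent, with Uhrf1, the factor that guides maintenance methylation, 51.4-fold and 35.4-fold, the histone chaperone gene Asf1b 34.0-fold and 24.1-fold higher in Active and UVB, Hat1, a histone acetyltransferase, 3.04-fold higher in Active and the DNA methyltransferase gene Dnmt1 6.3-fold higher in UVB. The histone-binding chaperone genes Rbbp4 and Rbbp7 fell 1.5-fold and 1.33-fold in UVB against Active.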

How the data were processed

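Per the labels' protocols, the cells were sorted by FACS, and polyadenylated RNA went into a strand-preserving library kit. Tools named in the submitters' processing notes are cutadapt 1.8, TopHat2 2.0.13, Cuffdiff 2.2.1 and the build mm10; the sources used here do not give the annotation or the strand setting. The deposited table, per the file headers, holds estimated counts (fragments per gene and library, before scaling) and the authors' FPKM values. Of the estimated counts 1.08% were not whole to within 1e-06, none of them in the 36 genes.

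The estimated counts were rounded and fitted with edgeR 4.0.16 in R 4.3.3, using TMM factors (1.16 to 1.23 in UVB and Active, 0.66 to 0.748 in Quiescent), filterByExpr, which left 15078 of 23361 genes, and a joint model of the 9 libraries with 1 mean for each group. Tests are two-sided quasi-likelihood F tests with p-values adjusted by Benjamini-Hochberg across the 15078 genes and a threshold of 0.05. Standard errors were taken as the log2 fold change over the square root of F. FPKM was used to compare levels between genes, for the subunit ratios and shares set side by side across groups, and in the limma alternatives. Exon overlaps come from the GENCODE M21 annotation and promoters from RefSeq. Libraries of 1 group were treated as replicates after their labels.

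The members and lists were chosen with earlier results of these data known. All 36 members are named; from each other list, up to 3 genes with the smallest adjusted p per comparison are named, plus any past the threshold in the direction opposite to most of the list; 1 gene that this rule gives is not reported here. Sox10, Mitf, Mlana, Rfc1 and the collagens were named after their values were seen. Alternatives were other scaling factors, DESeq2 1.42.0, limma 3.58.1 on log2(FPKM + 1) and log2(FPKM + 0.1), other filters, only the groups compared, a replicate block and leaving out each library.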

Additional observations from a re-analysis of the deposited data

How the results depend on the processing

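The counts of replication genes that rose were 34 to 35 in Active and 33 to 34 in UVB against Quiescent when each library was left out in turn, and stayed within 1.5 times of the main count under every alternative run. The median log2 fold changes were 2.72 to 2.9, 2.02 to 2.58 and, in UVB against Active, -0.79 to -0.26 without single libraries. With libraries scaled by their totals alone the medians were 3.57 in Active and 3.05 in UVB against Quiescent, where those of all genes moved to 0.76 and 0.74; on log2(FPKM + 1), which shrinks changes of low genes, the Active median was 2.51. The count of replication genes lower in UVB than in Active was 1 to 18 without single libraries and 3 with only the groups compared. Over all genes tested the corresponding counts were 453 to 1678 and 1492. Signs turned for genes that passed no threshold. E2f1 in UVB against Quiescent was 0.67 with libraries scaled by totals alone, 0.01 without Quiescent replicate 1, and from -0.44 without UVB replicate 2 to 0.21 without UVB replicate 3. Orc6 in the same comparison was -0.06 without UVB replicate 2 and 0.22 without UVB replicate 3. In UVB against Active, Pola1 was 0.0 with a filter of 50 counts in 3 libraries, 0.01 with only the groups compared, 0.07 without UVB replicate 1, 0.21 without UVB replicate 3 and 0.13 without Active replicate 2, with a lowest value of -0.39 without UVB replicate 2. Without UVB replicate 3, Pole was 0.24, Pold1 0.13, Chaf1a 0.05 and E2f1 0.12, and without UVB replicate 2 they were -0.72, -0.48, -0.63 and -0.53. The cause was not tested.

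Over all genes tested, same-numbered libraries of different groups had correlations of -0.171 to 0.231 in their deviations from the group means. Differently numbered libraries had -0.209 to 0.26, so the numbers were not taken as pairs. In the 36 genes alone replicate 2 was the highest in both UVB and Active, and a shared effect of the replicate number on them was not tested. With a replicate block 35 genes rose in Active and 34 in UVB against Quiescent. In UVB against Active 7 fell, beside 1004 of 15078 genes called lower. Depth limits Orc1 in Quiescent, which rests on 9, 1 and 3 fragments.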
